A study of Homo sapiens with 12 samples.

Results

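The 10 genes described here, HK2, GPI, PFKP, ALDOA, TPI1, GAPDH, PGK1, ENO1, PKM and LDHA, encode enzymes of glycolysis and were taken by symbol from the deposited expression tables of 2 cancer cell lines. All 10 were present in both tables, out of 12360 genes listed in either table and 10252 listed in both under the same symbol and Ensembl identifier. Cells of 23132/87, an established gastric adenocarcinoma line, and SW48, an established colorectal adenocarcinoma line, both labelled wild type, were cultured for 48 h with 10 µM myricone C, a neolignan of nutmeg (Myristica fragrans), or with the vehicle, 0.1% DMSO. Each of the 4 groups had 3 biological replicates, 12 mRNA libraries in all, made from cells between passages 5 and 20. One line stands for each tissue, with a single dose and a single time. The series title relates the compound to endoplasmic reticulum stress, apoptosis and the kinase ROCK; glucose metabolism is not named there.

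Glycolysis turns glucose into pyruvate in the cytosol. Hexokinase traps glucose as its phosphate, phosphofructokinase commits the sugar to breakdown, aldolase and triosephosphate isomerase split it into interchangeable trioses, and the later enzymes, from GAPDH to pyruvate kinase, harvest ATP and NADH. Lactate dehydrogenase regenerates the NAD+ that GAPDH consumes, and tumour cells often run this route at a high rate even with oxygen present. Many of the genes are known targets of hypoxia-inducible factor (HIF) and of MYC.

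Of the known HIF and MYC binding motifs, short forms were searched on both strands in the RefSeq promoter windows (GRCh38.p14, 250 bases before to 50 after a gene start), which hold 18 windows for the 10 genes because some genes have several starts. ACGTG and GCGTG are the core letters of the hypoxia response element, and CACGTG, which holds ACGTG on both strands, is the E-box of MYC. Either core was found in 15 of the 18 windows (83.3%) and in at least 1 window of all 10 genes, against 48.4% of all 35116 windows. CACGTG was found in 4 windows, of HK2, ALDOA, GAPDH and LDHA (22.2%, against 7.26%). TGATGNAA, the C/EBP-ATF element of the ATF4 stress response, was found in none (0 of 18, against 3.62%), and the cyclic AMP response element TGACGTCA in 1 window of LDHA (5.56%, against 1.85%). The windows of the 10 genes had a median GC content of 70.3%, and all windows 58.7%, and the part of base composition in these shares was not tested. The 250 bases before a start are shown for HK2 and PFKP, the genes that rose in SW48. They are also the members with a window in which those bases overlap no exon of GENCODE release 29. Of the 2 HK2 windows 1 met this. All 4 PFKP windows did, of which 2 held no core match, 1 held 1 and 1 held 3, and the one shown was chosen with its matches known. Each runs 5′ to 3′ on the plus strand, the strand of its gene, and capitals mark ACGTG or GCGTG on either strand (CACGT and CACGC are their reverse complements). HK2 is at chr2:74834920-74835169 and PFKP at chr10:3068939-3069188.
HK2: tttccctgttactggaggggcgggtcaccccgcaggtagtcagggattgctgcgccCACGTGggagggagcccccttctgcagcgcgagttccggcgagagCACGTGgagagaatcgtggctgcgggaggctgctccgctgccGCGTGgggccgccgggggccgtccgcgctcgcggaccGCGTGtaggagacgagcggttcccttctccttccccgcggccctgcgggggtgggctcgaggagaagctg
PFKP: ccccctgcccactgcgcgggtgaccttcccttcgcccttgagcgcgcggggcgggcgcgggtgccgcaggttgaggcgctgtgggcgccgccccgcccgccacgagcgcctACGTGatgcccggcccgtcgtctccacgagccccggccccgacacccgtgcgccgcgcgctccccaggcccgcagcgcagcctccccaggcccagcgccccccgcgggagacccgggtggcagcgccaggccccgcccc
The HK2 stretch held 6 core matches and that of PFKP 1. A match of letters is a description of these windows and not a site of binding, and both directions of response occurred among genes with matches.

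The deposited values, called signal here, are expression levels that appear to be scaled to library size and gene length, although the sources used here do not say so, and read depth is unknown. The values of a library summed to between 464037 and 536594. Mitochondrial pseudogenes took 13.4% to 18.1% of that sum. No 2 libraries of the same line were identical (0 of 30 pairs). SW48 myricone C replicate 1 stood apart, with 7SL and small nuclear RNA genes at 5.26% of its signal and at most 0.204% in each of the other 11, and it lay nearest to vehicle among the treated SW48 libraries on the first principal component. All 6 epithelial markers (EPCAM, KRT8, KRT18, KRT19, CDH1 and CLDN4) were listed in both lines. Gastric markers were mostly unlisted (TFF1 alone of 6 in 23132/87), and intestinal markers were partly listed (3 of 7 in each line). Of 16 leukocyte, mesenchymal and endothelial markers CD68 and COL1A1 were listed in 23132/87 and ACTA2 in SW48. Listed genes have a signal of at least 1.00 in each library of the line, so an unlisted marker can still be expressed. The summed signal of the epithelial markers moved with treatment, ranging over 7767 to 10408 with vehicle and 2869 to 3905 with myricone C in 23132/87, and over 1023 to 1795 and 2789.7 to 3963 in SW48. Its part in the results was not tested.

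Among vehicle libraries of 23132/87 the order of mean signal was GAPDH (1729 ± 74.4, SD, n = 3), PKM (1160.3 ± 115), ENO1 (739 ± 36.1), LDHA (726 ± 96.7), ALDOA (706 ± 41.9), TPI1 (548 ± 22.8), GPI (260.4 ± 17.9), PGK1 (217 ± 8.48), PFKP (54.8 ± 5.47) and HK2 (21.3 ± 2.01). Libraries of neighbours in that order overlapped for ENO1, LDHA and ALDOA and lay apart elsewhere. In SW48 vehicle libraries the order began likewise with GAPDH (1577 ± 174), PKM (943 ± 198) and ENO1 (615 ± 123), and ended with GPI (224 ± 23.4), PGK1 (92.1 ± 13.4), PFKP (62.6 ± 9.81) and HK2 (12.9 ± 3.25). TPI1 (490.0 ± 69.2), ALDOA (416 ± 62.9) and LDHA (319 ± 66.8) stood between, and neighbours from ENO1 to LDHA overlapped. HK2 and PFKP thus had the lowest signal of the 10 in both lines. Each is 1 of several isozymes of a step that commits sugar to the pathway. Isozymes outside the 10 held most of the signal of those steps. In vehicle libraries HK2 held 35.5% of hexokinase signal in 23132/87 and 23.2% in SW48. PFKP held 28.8% and 32.4% of phosphofructokinase signal. The order is of these genes and not of steps. The tables were made separately, so levels are not tested between the lines. Side by side, PGK1 and LDHA were the members with the widest gap, at 217 and 726 in 23132/87 against 92.1 and 319 in SW48.

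**Figure D1:**
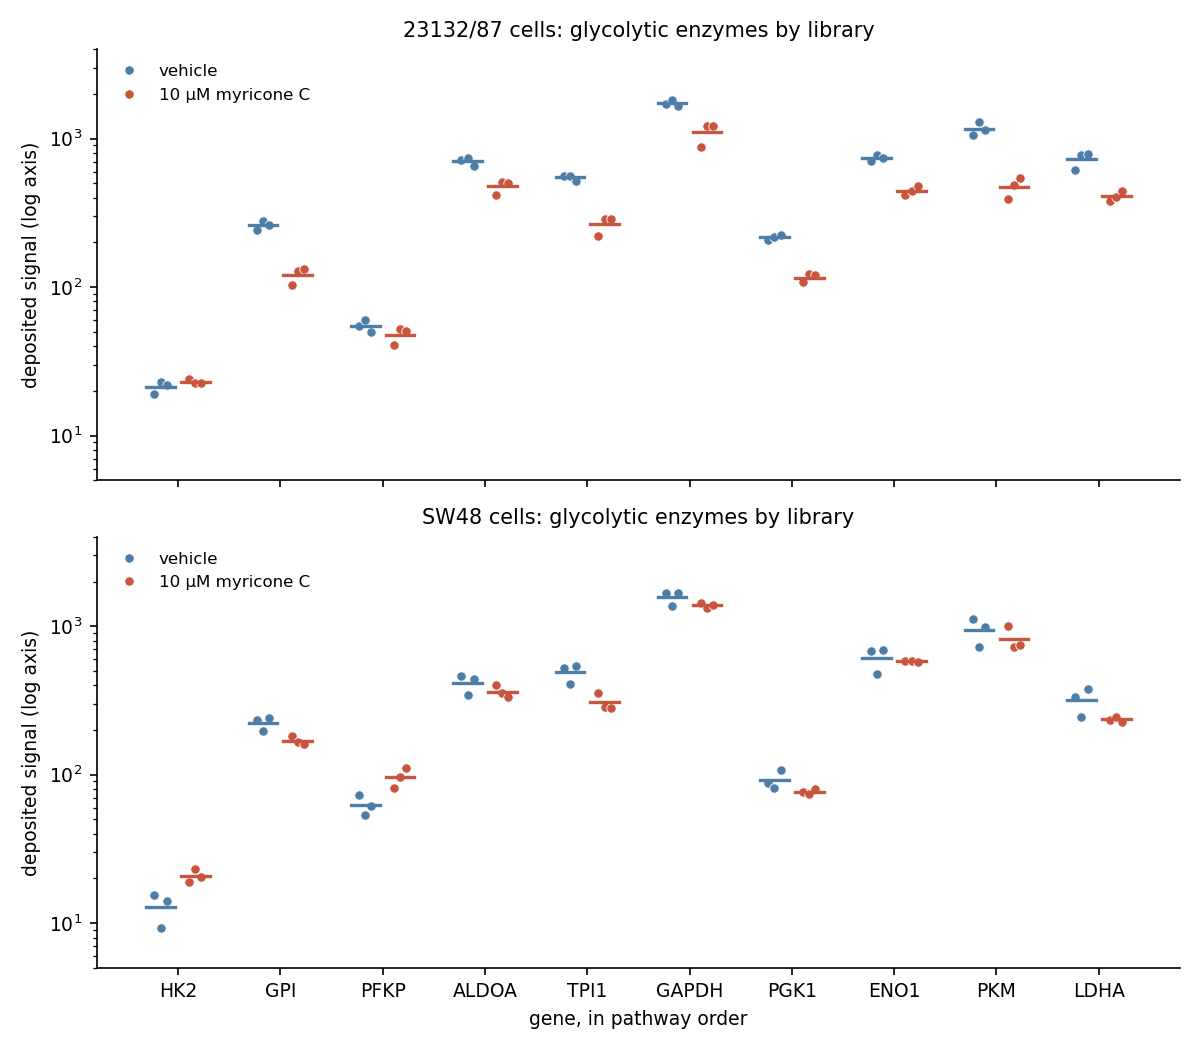
Deposited signal of the 10 glycolytic enzymes (log axis) in each of the 12 libraries, 23132/87 above and SW48 below, with genes in pathway order. Points are libraries and lines are group means. In 23132/87 the treated libraries lie below the vehicle libraries for 8 genes, and in SW48 they lie above them for HK2 and PFKP.

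In 23132/87 cells, myricone C lowered 8 of the 10 glycolytic enzymes and raised none. The transcripts that fell were GPI and the 7 members that act after phosphofructokinase, and they stood at 40.8% (PKM) to 67.9% (ALDOA) of vehicle. HK2 and PFKP did not pass the test. The median log2 change of the 10 was -0.773, against 0.0138 over all 11070 genes tested. In this line 46.5% of all genes passed at adjusted p under 0.05, 23.2% as lower and 23.3% as higher. For the same 8 genes all treated libraries lay below all vehicle libraries, which held for 27.9% of all genes. The values are relative within each bulk library, so less of a transcript per cell and fewer cells carrying it cannot be told apart.

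PKM, which encodes pyruvate kinase M, the enzyme that yields pyruvate and ATP at the end of the pathway, fell furthest. Its signal was 1057, 1285 and 1139 with vehicle and 391, 484 and 545 with myricone C (chromosome 15, 72199029 to 72231822). All treated libraries lay far below vehicle, with a log2 change of -1.30 ± 0.14 (SE, adjusted p = 9.02e-05). The splice forms PKM1 and PKM2 are not separated in values per gene.

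GPI, the isomerase that converts glucose 6-phosphate to fructose 6-phosphate, was at 242, 278 and 260.4 with vehicle and 103, 128 and 132 with myricone C (chromosome 19, 34359480 to 34402413). The groups did not overlap, and the log2 change was -1.11 ± 0.12 (SE, adjusted p = 7.21e-05). TPI1, which interconverts the triose phosphates, was at 560.2, 562 and 522 against 222, 288 and 289 (chromosome 12, 6867119 to 6870948), a log2 change of -1.05 ± 0.12 (adjusted p = 0.000130). Its treated libraries all held less signal than any vehicle library. SPSB2 overlaps TPI1 on the opposite strand and moved the other way in this line, from 9.08 ± 0.544 to 16.8 ± 3.76 (SD, n = 3). The strand setting of the counting is not given in the sources used here, and its part was not tested.

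PGK1, the first ATP-yielding kinase of the pathway, was at 209, 216 and 226 with vehicle and at 108, 122 and 120.1 with myricone C (chromosome X, 77910739 to 78129296). All treated libraries lay below vehicle, and the log2 change was -0.90 ± 0.09 (SE, adjusted p = 6.53e-05). PGAM4 overlaps PGK1 on the opposite strand and fell in this line (4.84 ± 0.296 to 2.03 ± 0.265, SD, n = 3). ATP7A overlaps PGK1 on the same strand and was not called (2.66 ± 0.498 and 2.64 ± 0.475). Sharing of reads between PGAM4 and PGK1 or PGAM1 was not tested. LDHA, the lactate dehydrogenase subunit that favours lactate formation, was at 614, 779 and 784 against 382, 402 and 441 (chromosome 11, 18394388 to 18408425), a log2 change of -0.82 ± 0.13 (adjusted p = 0.000608). ENO1, the main enolase, was at 705, 777 and 736 against 419, 446 and 477 (chromosome 1, 8861000 to 8879250), a log2 change of -0.72 ± 0.11 (adjusted p = 0.000437). The groups lay apart for PGK1, LDHA and ENO1.

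GAPDH, the dehydrogenase often used as a reference gene for expression, was at 1713, 1809.7 and 1663 with vehicle and 885, 1214 and 1219 with myricone C (chromosome 12, 6533927 to 6538374). Replicate 1 was the lowest treated library, and all 3 lay below vehicle, with a log2 change of -0.66 ± 0.15 (SE, adjusted p = 0.00563). ALDOA, the ubiquitous aldolase, was at 719, 740.1 and 659 against 418, 513 and 506 (chromosome 16, 30064164 to 30070457), a log2 change of -0.56 ± 0.12 (adjusted p = 0.00355). The falls of GAPDH and ALDOA were the smallest among the 8 that passed. GAPDH has 62 named pseudogenes in GENCODE release 29 and LDHA has 6, with which reads can be shared. GAPDHP62 (3.62 ± 0.989 with vehicle) and LDHAP4 (11.0 ± 2.03) were the listed ones in 23132/87, far below their parent genes.

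HK2, the inducible hexokinase that binds mitochondria, was at 19.0, 22.8 and 22.0 with vehicle and 24.1, 22.6 and 22.7 with myricone C in 23132/87 (chromosome 2, 74833981 to 74893359). The groups overlapped, and the log2 change of 0.12 ± 0.11 (SE) had a 95% interval from -0.12 to 0.35. PFKP, the platelet-type phosphofructokinase, was at 54.6, 60.4 and 49.5 against 40.5, 52.5 and 50.3 (chromosome 10, 3066333 to 3137712). These groups overlapped too, at -0.20 ± 0.12 with an interval from -0.47 to 0.07. Neither interval reached the estimated fall of ALDOA, the smallest of the 8 called. The ALDOA interval, from -0.83 to -0.30, overlapped that of PFKP, and genes were not tested against each other. Myricone C replicate 1 held the lowest treated value for 9 of the 10 genes, HK2 being the exception. Its summed signal, 464037, was also the lowest of all libraries, and without it the same 8 genes passed the test.

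In SW48 cells the same exposure moved the 10 genes in both directions. HK2 and PFKP rose, GPI and TPI1 fell, and the other 6 did not pass the test. The median log2 change was -0.187, against -0.0799 over all 11554 genes tested. Over all genes in this line 10.1% rose and 19.2% fell. The 2 of 10 lowered is near that background, and the 2 of 10 raised are single genes. The split of all calls in SW48 depends on scaling: 34.6% of calls were rises as deposited, 49.4% after median-ratio scaling and 46.2% after quantile normalization. All treated libraries lay above vehicle for those that rose, and below it for GPI, TPI1 and PGK1, which held for 16.8% and 28.4% of all genes.

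HK2 in SW48 was at 15.4, 9.24 and 14.2 with vehicle and 18.8, 23.0 and 20.6 with myricone C. Vehicle replicate 2 was low, and all treated libraries lay above all vehicle libraries. The rise was to 1.61-fold of vehicle, a log2 change of 0.67 ± 0.18 (SE, adjusted p = 0.0153). It was 0.46 without vehicle replicate 2 and still called, and 0.60 without myricone C replicate 2, where the call was lost. A divergent noncoding transcript, HK2-DT, overlaps the gene on the opposite strand. It was listed in SW48 only, at 1.49 ± 0.432 and 1.66 ± 0.608 (SD, n = 3), and was not called. The part of the strand setting, not given in the sources used here, was not tested.

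PFKP in SW48 was at 72.8, 53.3 and 61.8 with vehicle and 80.7, 97.0 and 110.2 with myricone C. The groups did not overlap, and the rise to 1.53-fold gave a log2 change of 0.61 ± 0.15 (SE, adjusted p = 0.0104). This call held on leaving out any 1 of the 6 libraries, at 0.50 to 0.73. With myricone C the order of PFKP and PGK1 in the signal ranking was exchanged in this line, at 96.0 ± 14.8 against 76.7 ± 2.88 (SD, n = 3), with libraries apart.

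TPI1 fell in SW48 from 523, 410.4 and 536 to 356, 286 and 279.8, with no overlap and a log2 change of -0.67 ± 0.14 (SE, adjusted p = 0.00443). It was the member with the largest fall in this line. The TPI1 call was lost with a block for the replicate number in the column names (-0.55, adjusted p = 0.0694). That fit rests on 2 pairs of libraries. GPI was at 234, 197 and 241 against 182, 166 and 161, a log2 change of -0.40 ± 0.12 (adjusted p = 0.0248). The GPI call was lost after quantile normalization (-0.28), after median-ratio scaling (-0.30), and in 4 of the 6 fits that drop a library: vehicle replicate 1 (-0.36), vehicle replicate 3 (-0.34), myricone C replicate 2 (-0.38) and myricone C replicate 3 (-0.36). LDHA was at 336, 245 and 376 against 234, 246 and 228, with a log2 change of -0.41 ± 0.15 (adjusted p = 0.0564). Its treated values were close together and overlapped vehicle only through vehicle replicate 2, without which the change was -0.59 and called (adjusted p = 0.00662).

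The remaining members in SW48 had intervals that include no change. PGK1 was at 87.7, 81.4 and 107 against 76.6, 73.9 and 79.7, a log2 change of -0.25 ± 0.12 (SE) with a 95% interval from -0.52 to 0.02. The groups lay just apart. ALDOA was at 464, 345 and 440.1 against 399.9, 357 and 332 (interval -0.48 to 0.10), and GAPDH at 1674, 1376 and 1682 against 1438, 1326 and 1384 (interval -0.44 to 0.07). ENO1 was at 686, 473 and 687 against 586, 583 and 572 (interval -0.38 to 0.26), and PKM at 1115, 726 and 989 against 1006, 726 and 744 (interval -0.57 to 0.20). In these 4 the treated libraries sat inside or across the vehicle range. For all 10 genes the lowest vehicle value was that of SW48 vehicle replicate 2, whose summed signal over the 10 genes was 3916 against 5208 and 5133 in its partners.

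**Figure D2:**
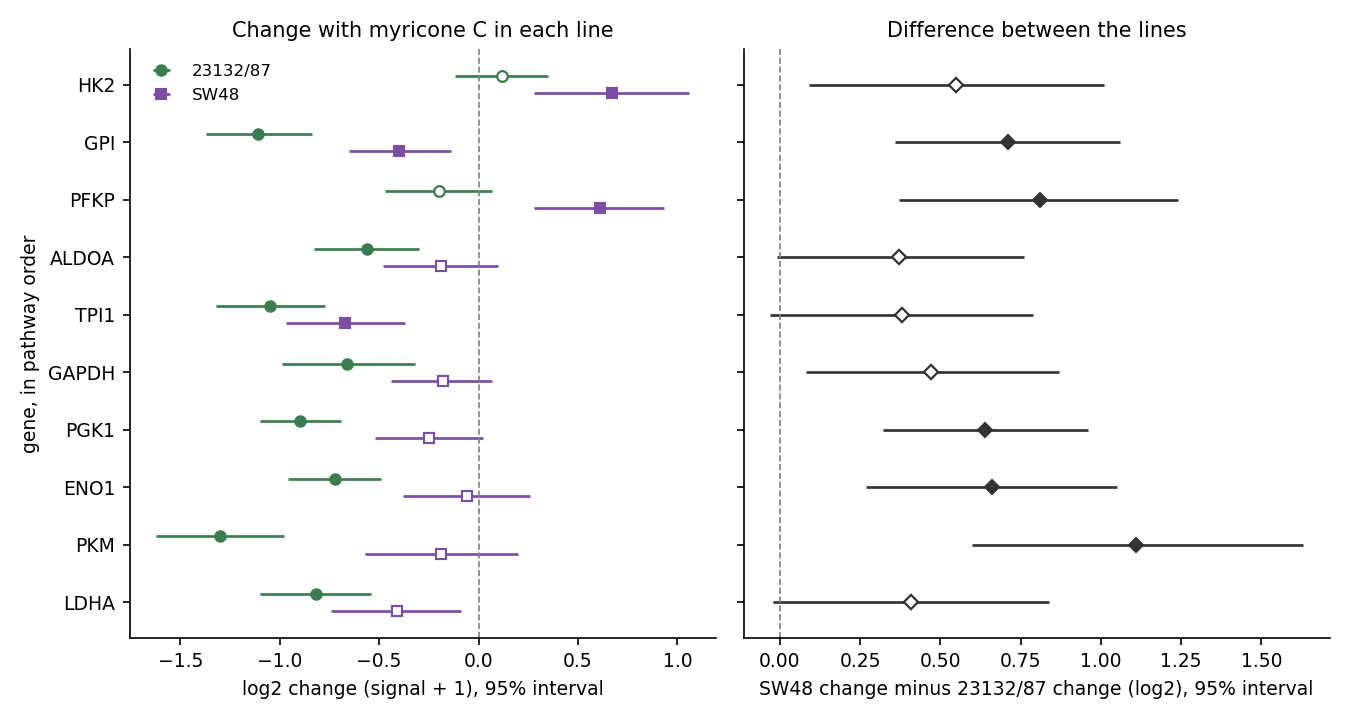
Left, log2 change of each enzyme with myricone C in 23132/87 (circles) and SW48 (squares); right, the SW48 change minus the 23132/87 change. Bars are 95% intervals from limma, filled symbols passed adjusted p under 0.05. All 10 differences are positive, from 0.37 to 1.11, and 5 passed.

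All 10 members had a more positive log2 change in SW48 than in 23132/87, and for 5 of them the difference passed its test. The test of the difference itself (the line-by-treatment term of limma) passed for PKM, PFKP, GPI, ENO1 and PGK1, against 5.34% of 10252 genes with a difference in that direction and 7.43% in the other. Of all calls 41.8% were in that direction as deposited, 60.3% after median-ratio scaling and 53.5% after quantile normalization. The median difference was 0.597 on the log2 scale, against -0.0857 over all genes. PKM differed most, by 1.11 ± 0.24 (SE, adjusted p = 0.00864), having fallen to 40.8% of vehicle in 23132/87 and stood at 87.5% in SW48. PFKP differed by 0.81 ± 0.20 (adjusted p = 0.0183), with a change of -0.20 in 23132/87 and 0.61 in SW48. GPI, called as lower in both lines, differed by 0.71 ± 0.16 (adjusted p = 0.0120).

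ENO1 differed by 0.66 ± 0.18 (SE, adjusted p = 0.0284) and PGK1 by 0.64 ± 0.15 (adjusted p = 0.0122). The differences of HK2 (0.55, interval 0.09 to 1.01), GAPDH (0.47, interval 0.08 to 0.87), LDHA (0.41, interval -0.02 to 0.84), TPI1 (0.38, interval -0.03 to 0.79) and ALDOA (0.37, interval -0.01 to 0.76) did not pass after adjustment. The ENO1 call was lost after quantile normalization (0.39), with the replicate number of the titles as a block (0.66, adjusted p = 0.0549), and in 4 of the 12 fits that drop a library (23132/87 vehicle replicate 2 at 0.63, and 23132/87 vehicle replicate 3, 23132/87 treated replicate 2 and SW48 treated replicate 2 at 0.66 each). The PFKP call was lost without 23132/87 vehicle replicate 2 (0.74) or SW48 vehicle replicate 2 (0.70), and HK2 was called without SW48 vehicle replicate 1 (0.68). The calls of PKM, GPI and PGK1 held on leaving out any 1 of the 12 libraries, and that of PGK1 was lost with the block by column number (0.59, adjusted p = 0.0720).

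Summed over the 10 genes, the pathway took 1.12%, 1.26% and 1.17% of the listed signal in 23132/87 vehicle libraries and 0.645%, 0.730% and 0.751% with myricone C. In SW48 the shares were 0.994%, 0.769% and 0.957% against 0.877%, 0.813% and 0.783%. The groups lay apart in 23132/87 and overlapped in SW48. The exact two-sided permutation test, which cannot go below 0.1 with 3 libraries against 3, gave p = 0.100 for 23132/87 and p = 0.400 for SW48 (0.200 and 0.533 after adjustment over 12 shares tested).

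Several steps are served by isozymes from separate genes, whose balance was followed as shares of summed signal. HK2 made up 35.5% ± 1.04 of hexokinase signal (HK1 plus HK2) in 23132/87 vehicle cells and 47.5% ± 3.51 with myricone C, and 23.2% ± 2.95 and 32.3% ± 2.85 in SW48 (SD, n = 3). The treated libraries lay above vehicle in both lines, with an exact permutation p = 0.100 in each, the smallest this design allows (adjusted p = 0.200). In 23132/87 HK1, the housekeeping hexokinase, fell by 0.57 ± 0.12 on the log2 scale (SE, adjusted p = 0.00307), while HK2 was not called. In SW48 HK1 was at 42.2 ± 4.24 and 43.5 ± 1.29 (SD, n = 3), not called, and HK2 rose.

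The share of PFKP among phosphofructokinases (PFKP, PFKL and PFKM) was 28.8% ± 0.491 with vehicle and 35.1% ± 1.24 with myricone C in 23132/87, and 32.4% ± 0.809 and 44.0% ± 7.27 in SW48 (SD, n = 3). Treated libraries lay above vehicle in both lines (exact permutation p = 0.100 in each). PFKL, the liver type, fell in 23132/87 by 0.79 ± 0.14 (SE; adjusted p = 0.0605 with all 12 libraries in one fit) and PFKM, the muscle type, by 0.44 ± 0.12 on the log2 scale. The PFKM call was lost without vehicle replicate 2 (-0.38). In SW48 PFKL was at 43.7, 32.3 and 124 with myricone C against 74.8, 59.7 and 63.7 with vehicle. Replicate 3 was far above its partners, and without it PFKL was lower, at -0.79 (adjusted p = 0.00710).

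For lactate dehydrogenase the treated and vehicle shares overlapped: LDHA made up 57.1% ± 3.03 and 58.8% ± 1.40 of LDHA plus LDHB in 23132/87, and 40.8% ± 4.36 and 41.5% ± 2.47 in SW48 (SD, n = 3). LDHB, the subunit that favours pyruvate formation, fell with LDHA in 23132/87, from 540.4 ± 8.54 to 287 ± 29.7 (log2 change -0.92 ± 0.11, SE), and fell in SW48 from 457 ± 19.8 to 334 ± 20.7 (log2 change -0.46 ± 0.10). ALDOA made up nearly all aldolase signal, at 97.9% ± 0.0646 and 95.3% ± 0.141 in 23132/87. There ALDOC, the brain-type aldolase, rose from 15.1 ± 1.04 to 23.4 ± 2.64, against the direction of ALDOA. In SW48 ALDOC was at 19.3 ± 0.705 and 19.2 ± 4.04, and the test of the difference between lines passed (-0.63 ± 0.19, SE, adjusted p = 0.0457). ENO2, the neuronal-type enolase, fell in 23132/87 by 0.71 ± 0.14 and was at 0.20 ± 0.11 and not called in SW48.

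**Figure D3:**
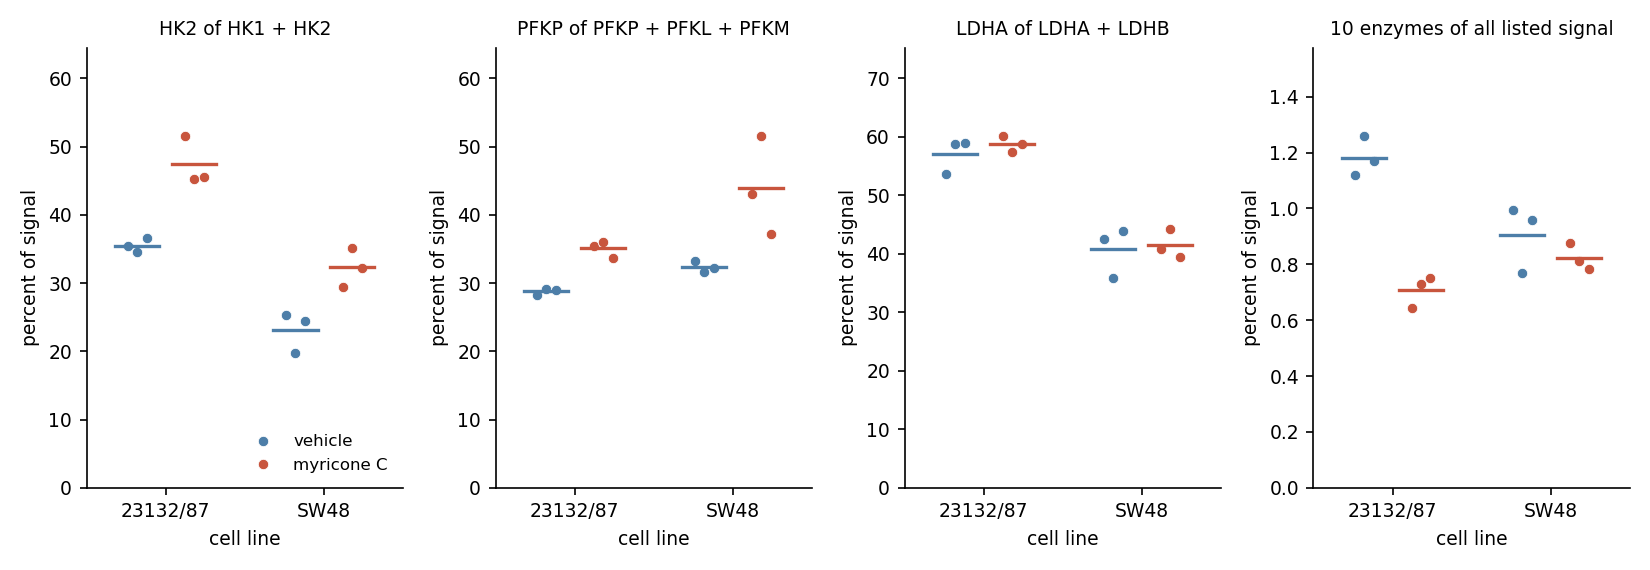
Share of HK2, PFKP and LDHA in the summed signal of their isozymes, and share of the 10 enzymes in all listed signal (percent, axes from 0), by line and treatment. Points are libraries and lines are means. HK2 and PFKP shares are higher in all treated libraries of both lines, and LDHA shares overlap.

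The counts of the gene lists that follow are to be read against all genes tested, of which 23.2% fell and 23.3% rose in 23132/87, and 19.2% fell and 10.1% rose in SW48. Of a list of 19 other glycolytic isozymes and steps, 10 were listed in both tables. In 23132/87 6 fell (HK1, PFKL, PFKM, PGAM1, ENO2 and LDHB) and 1 rose (ALDOC), with a median log2 change of -0.50. In SW48 2 fell (PGAM1 and LDHB) and none rose, with a median of -0.14, and 2 of 10 is near the share of all genes. PGAM1, the phosphoglycerate mutase that acts between PGK1 and ENO1, was at 202, 198 and 187 against 65.5, 78.3 and 89.1 in 23132/87, a log2 change of -1.33 ± 0.12 (SE, adjusted p = 2.41e-05). In SW48 it was at 193, 163 and 202 against 113, 103 and 103, a change of -0.80 ± 0.12 (adjusted p = 0.000668). Its treated libraries lay below vehicle in both lines.

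**Figure D4:**
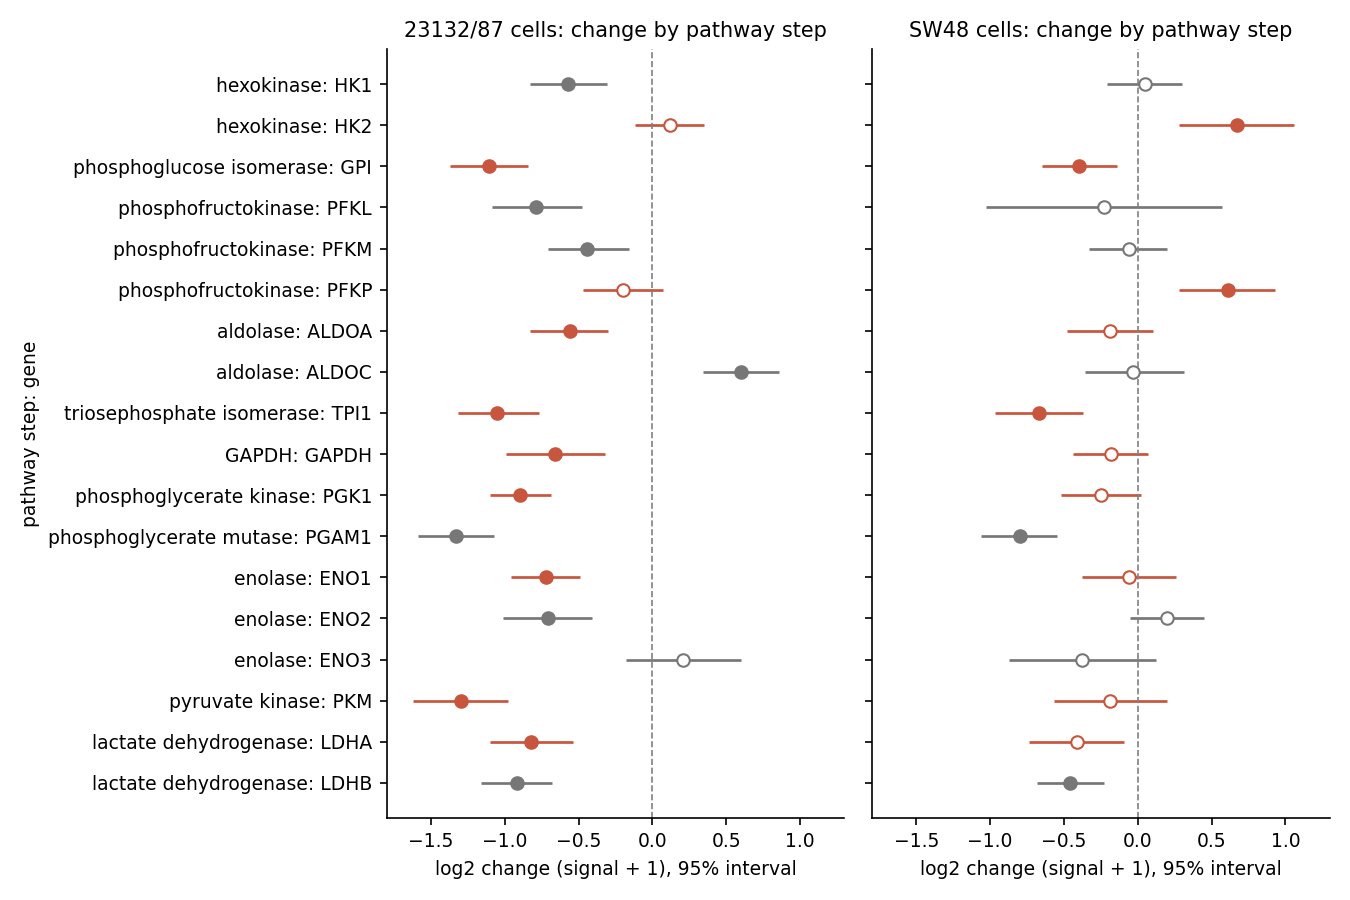
Log2 change with myricone C by pathway step in 23132/87 (left) and SW48 (right), for the 10 enzymes (red) and other listed isozymes (grey), with 95% intervals. Filled symbols passed adjusted p under 0.05. In 23132/87 ALDOC is the one gene to the right of 0 that passed, and in SW48 these are HK2 and PFKP.

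Of 6 listed genes of glucose and lactate transport 1 fell in 23132/87 (SLC2A8, an intracellular hexose transporter, -0.60 ± 0.13, SE) and none rose. In SW48 SLC2A1, which encodes the glucose transporter GLUT1, rose from 316, 242 and 267 to 350.1, 444 and 451, a log2 change of 0.59 ± 0.14 (SE, adjusted p = 0.00813). All treated libraries lay above vehicle. In 23132/87 SLC2A1 was at 76.7 ± 16.7 and 69.2 ± 7.32 (SD, n = 3), and the difference between lines passed the test (0.72 ± 0.22, SE, adjusted p = 0.0421). Also in SW48, SLC2A8 fell by 0.76 ± 0.16 and BSG, the chaperone of lactate transporters, by 0.61 ± 0.12 on the log2 scale. PFKFB2, which makes the phosphofructokinase activator fructose 2,6-bisphosphate, rose in SW48 (0.72 ± 0.15) and in 23132/87 (0.37 ± 0.12), while PFKFB3, a related enzyme, fell in 23132/87 by 0.44 ± 0.13. In 23132/87 PFKFB2 missed the threshold in 4 of the 6 fits that drop a library (0.28 to 0.40: vehicle replicates 2 and 3, myricone C replicates 1 and 3), and PFKFB3 in 3 (vehicle replicate 1 at -0.36, vehicle replicate 2 at -0.39, myricone C replicate 2 at -0.44).

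Genes that set the fate of pyruvate fell in 6 of 14 cases and rose in 2 in 23132/87 (median log2 change -0.26), and fell in 5 of 13 and rose in 2 in SW48 (median -0.28). The 2 of 14 that rose lie below the 23.3% of all genes in 23132/87, and the 2 of 13 near the 10.1% in SW48. PDK1, the kinase that switches off pyruvate dehydrogenase, rose in both lines, from 4.04 ± 0.318 to 9.54 ± 0.514 and from 6.62 ± 0.820 to 11.0 ± 1.79 (SD, n = 3). PDHA1, the catalytic subunit of pyruvate dehydrogenase, fell by 0.75 ± 0.09 in 23132/87 and 0.54 ± 0.12 (SE) in SW48 on the log2 scale, the latter lost with the block by column number (-0.47, adjusted p = 0.0647). PDHX, which tethers a subunit of that complex, fell by 1.07 ± 0.10 in 23132/87, and MPC2, of the mitochondrial pyruvate carrier, fell by 0.80 ± 0.13 and PDK2 by 0.72 ± 0.17 in SW48. PCK2, the mitochondrial enzyme that makes phosphoenolpyruvate, rose to 8.13-fold and 5.28-fold of vehicle. It was 1 of 4 listed gluconeogenesis genes that rose in 23132/87, where SLC37A4, the glucose 6-phosphate transporter, fell by 0.41 ± 0.13, and 1 of 3 in SW48, where none fell. SLC37A4 missed the threshold when vehicle replicate 1 (-0.36), vehicle replicate 2 (-0.35) or treated replicate 1 (-0.33) was dropped, after rescaling without mitochondrial pseudogenes, 7SL and small nuclear RNA (-0.33, adjusted p = 0.0640), and with the block by title number (-0.41, adjusted p = 0.0557).

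Routes that branch from glycolysis rose in 7 of 15 cases and fell in 2 in 23132/87, and rose in 5 of 17 and fell in 4 in SW48. Over all genes 23.3% rose and 23.2% fell in 23132/87, and 10.1% rose and 19.2% fell in SW48, so the falls lay near or below the share of all genes. GFPT1, the entry enzyme of hexosamine synthesis, rose by 2.23 ± 0.13 and 1.80 ± 0.15 (SE), PSAT1, of serine synthesis, by 1.59 ± 0.11 and 1.75 ± 0.15, and the glycogen phosphorylase PYGB by 0.88 ± 0.12 and 1.42 ± 0.14.

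Another list held transcription factors known to act on glycolytic genes, regulators of HIF turnover, and the glucose-responsive genes TXNIP and ARRDC4. From it 5 of 14 rose and 1 fell in 23132/87, and 3 of 15 rose and none fell in SW48. The 3 in SW48 were MYC, TXNIP and ARRDC4. Of all genes 23.3% rose in 23132/87 and 10.1% in SW48. MYC rose in both, from 47.1 ± 2.43 to 92.3 ± 3.39 and from 77.4 ± 13.8 to 159 ± 40.2 (SD, n = 3). Its partner MAX rose in 23132/87 by 0.56 ± 0.11 (SE), and EGLN1, a prolyl hydroxylase that marks HIF for degradation, fell by 0.51 ± 0.11. VHL, which also acts in HIF turnover, rose in that line by 0.34 ± 0.10. HIF turnover itself was not tested. The glucose-responsive genes TXNIP and ARRDC4 rose in SW48 by 0.91 ± 0.26 and 1.09 ± 0.21. TXNIP missed the threshold when vehicle replicate 3 (0.96), treated replicate 2 (0.89) or treated replicate 3 (0.85) was dropped, and with the block by column number (0.49, adjusted p = 0.103). HIF targets outside glycolysis rose in 8 of 11 cases and fell in 1 in 23132/87 (median log2 change 0.79), and rose in 7 of 10 and fell in none in SW48 (median 0.68), against 23.3% and 10.1% of all genes that rose. VEGFA, an angiogenic factor, rose to 4.57-fold and 7.73-fold of vehicle, DDIT4, an inhibitor of mTORC1, to 4.63-fold and 31.1-fold, BNIP3L, a mitophagy receptor, to 2.34-fold in 23132/87, and NDRG1, a stress-responsive gene, to 16.7-fold in SW48. In 23132/87 the median log2 change of these targets was 0.79 and that of the 10 glycolytic enzymes -0.773. Of the 16 genes on that list of targets, 11 were listed in 23132/87 and 10 in SW48. The list was chosen with earlier results of these data known. PLOD2 was the target that fell in 23132/87 (-1.07 ± 0.13, SE). HIF activity was not tested.

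Across the 12 libraries, with each gene centred and divided by its SD within its line, 8 of the members followed the mean of the other 9 closely, with Pearson r from 0.84 (TPI1 and PGK1) to 0.95 (GAPDH). PFKP (0.19) and HK2 (-0.38) did not. This measure keeps the treatment change, and the 8 are the genes called lower in 23132/87. With group means removed, all 45 pairs of members were positively correlated, with r from 0.27 to 0.95 and a median of 0.66. Single libraries stood at the end of their group for most members. SW48 vehicle replicate 2 was lowest for 10 of 10 and 23132/87 myricone C replicate 1 for 9. In 23132/87, vehicle replicate 2 was highest for 8. The same r was not computed for pairs of other genes. These correlations are descriptions, since libraries share one scaling. The first measure, which keeps the treatment change, was also used for 5516 genes outside the lists with a mean of at least 10. Those most like the mean of the 10 members were HSD3B7 (r = 0.968), DNAJC11 (0.956), HMOX2 (0.953), RUSC1 (0.952) and EBNA1BP2 (0.952). In 23132/87 HSD3B7 went from 18.1 ± 3.25 to 10.5 ± 0.774, and in SW48 it was at 45.0 ± 7.24 and 37.4 ± 1.85 (SD, n = 3).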

How the data were processed

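RNA was measured in 12 mRNA libraries of the 2 cell lines, prepared with the TruSeq Stranded mRNA kit from RNA with an integrity number above 8.0, per the labels' protocols. The reads went through FastQC and STAR (build GRCh38), per the submitters' processing notes, which carry no versions. How genes were counted, whether by strand, on which annotation and in what unit is not given in the sources used here. For each line the authors deposited 1 table, with values of at least 1.00 for each listed gene and library, taken here as normalized signal. Depth is unknown, so no counting intervals are given. Each column was matched to its sample by name, and the SW48 myricone C columns carry other replicate numbers than the titles.

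Signal was tested as log2(signal + 1) with limma 3.58.1 (R 4.3.3, mean-variance trend), so fold changes of low genes are understated. Genes needed a mean of at least 1, which all met, and p-values were adjusted by Benjamini-Hochberg over all genes at 0.05. The 6 libraries of a line were fitted together, and the difference between lines as a line-by-treatment term over 12 libraries. Folds and percentages of vehicle are ratios of mean signal. The procedure was tested on simulated data in which 200 genes of each line were changed, far fewer than the 5153 (23132/87) and 3383 (SW48) called here. In 23132/87, SW48 and the difference between lines in turn, it recovered 23.9%, 21.2% and 17.7% of log2 changes of 0.5. Of changes of 1 it recovered 92.5%, 86.4% and 80.3%. Of its calls 2.76%, 4.93% and 7.04% were of unchanged genes. With more genes changed the adjusted threshold is less strict, so these shares need not hold for the data. A change near 0.5 that was not called can still have been missed. Members and gene lists were chosen with earlier results of these data known. From each of the 8 lists and each line up to 3 called genes with the largest change were named, with all listed isozymes and the 5 genes most like the members; the few others were named after their values were seen. Replicates with the same title number did not deviate together (correlations of -0.270 to 0.112). The SW48 pairs with the same column number, 2 in all, correlated at 0.152 and 0.271, and no source says that either number marks a shared culture or day. The main fits have no block, and blocks by either number were alternatives. In SW48 the block by column number leaves the estimate to those 2 pairs, as vehicle replicate 1 and myricone C replicate 3 have no partner. Gene positions are from GENCODE release 29 (GRCh38).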

Additional observations from a re-analysis of the deposited data

Results flagged for a closer look

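For 5 enzymes the change with myricone C differed between the lines by the test of the difference itself, the line-by-treatment term of limma over 12 libraries. The SW48 change minus the 23132/87 change, on the log2 scale, was 1.11 for PKM, 0.81 for PFKP, 0.71 for GPI, 0.66 for ENO1 and 0.64 for PGK1. In SW48 the libraries of vehicle replicate 2 had the lowest signal of their group for all 10 enzymes. Without that library the differences of PKM, GPI, ENO1 and PGK1 passed the test and that of PFKP was 0.70 and did not. What sets the lines apart was not tested.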

How the results depend on the processing

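In 23132/87 all 10 enzymes kept their direction and side of the threshold under 10 alternatives and on leaving out any 1 of 6 libraries. Other results moved as follows, and the cause was not tested. The GPI change in SW48 was not called after quantile normalization (-0.28), median-ratio scaling (-0.30) or rescaling without mitochondrial pseudogenes, 7SL and small nuclear RNA (-0.32), each of which left 1 enzyme lower in place of 2. ENO1 in SW48, not called, was 0.03 after median-ratio scaling and 0.01 after rescaling. Quantile normalization gave differences between lines of 0.39 for ENO1 (lost) and 0.46 for GAPDH (called). LDHA in SW48 was called with all 12 libraries in one fit (-0.41, adjusted p = 0.0364). When genes needed a signal of 10 in 3 or more libraries, which tests fewer genes, 1658 genes rose in 23132/87 (2582 as reported) and 425 differed downwards between lines (762 as reported).

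Groups shared replicate numbers. Deviations of libraries with the same title number correlated at -0.270 to 0.112, while the 2 SW48 pairs that share a column number correlated at 0.152 and 0.271, so a pairing by column number in SW48 was not settled. The replicate block by title number left the ENO1 difference at 0.66 but not called, with 354 genes differing upwards (547 as reported) and 416 downwards. The replicate block by column number, which in 23132/87 equals the title number, gave in SW48 -0.32 for GPI and -0.55 for TPI1 (both lost, so 0 enzymes lower), 0.04 for ENO1 and 0.01 for PKM, and a PGK1 difference of 0.59 (lost). On the SW48 side these values rest on the 2 pairs alone, since vehicle replicate 1 and myricone C replicate 3 have no partner by column number.

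Leaving out 1 library gave for SW48 0.46 to 0.80 for HK2, -0.48 to -0.34 for GPI, -0.24 to 0.03 for ENO1 and -0.59 to -0.28 for LDHA, with 1 to 2 enzymes higher and 1 to 3 lower, and 768 to 1333 genes higher and 1431 to 2323 lower. Differences between lines were 0.34 to 0.68 for HK2, 0.69 to 0.92 for PFKP and 0.48 to 0.75 for ENO1, with 3 to 6 enzymes differing upwards, none downwards, and 465 to 828 of all genes downwards. The change in share ranged from -0.0828 to 0.167 percentage points for ENO1 and -0.108 to 2.56 for LDHA in 23132/87, and -1.79 to 2.29 for LDHA in SW48.

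Uncalled changes of other genes turned sign. In 23132/87 SLC2A1 was 0.01 after quantile normalization and -0.28 to 0.03 without 1 library, and ARRDC4 -0.23 to 0.06. In SW48, after quantile normalization, median-ratio scaling and rescaling in turn, ALDOC was 0.03, 0.06 and 0.04, PFKM 0.04, 0.03 and 0.01 (0.00 with the block by column number), and ADPGK 0.06, 0.08 and 0.06. Without 1 library ALDOC was -0.17 to 0.13, PFKM -0.17 to 0.01, ADPGK -0.06 to 0.05, PFKL -0.79 (called) to 0.16 and HK1 -0.04 to 0.10.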
